A study of Mus musculus with 6 samples.

Results

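Endoplasmic reticulum (ER) chaperones and genes of the unfolded protein response (UPR) were followed in mouse embryonic stem (ES) cells carrying a hairpin RNA against the chromatin ATPase Atad2. The genes were Hspa5, Hsp90b1, Dnajb9, Sdf2l1, Calr, Pdia4, Pdia6, Creld2, Herpud1 and Xbp1. They were taken by symbol, as every probe of the array annotated to them. All 10 genes were measured, among 10072 genes tested, by 15 probes, of which 14 were above background on all 6 arrays. The exception was the dimmer of 2 Calr probes, which was above background on none.

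The cells were 46C ES cells whose Atad2 gene carries a purification tag. They were transduced with a lentiviral pLKO.1 vector and selected as a pool with puromycin, and this holds for both groups. In the shAtad2 group the vector expressed a short hairpin RNA (shRNA) against Atad2. In the shCtrl group it expressed a control shRNA, which the labels call non-targeting and the study's text calls both non-targeting and inactive. Both were taken on day 3 after withdrawal of leukaemia inhibitory factor (LIF), the cytokine that holds ES cells undifferentiated. Each group had 3 Illumina MouseWG-6 v2.0 arrays, and no source states that these were separate cultures. The p-values therefore cover the spread between arrays, which may be technical. Because whole cultures were read, fewer cells of a type and less RNA per cell cannot be told apart.

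The ER is where secreted and membrane proteins are folded, glycosylated and given their disulfide bonds. When unfolded proteins build up in its lumen, the sensors Ire1, Perk and Atf6 start the UPR. Ire1 splices the mRNA of Xbp1, Atf6 is cut free from the membrane, and both factors then raise the genes of chaperones and of ER-associated degradation. Perk phosphorylates the translation factor eIF2alpha and so raises Atf4, which drives a separate set of stress genes. ES cells that leave pluripotency begin to secrete matrix and signalling proteins, and the ER serves this load.

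The knockdown was read first. Atad2 had a normalized log2 intensity of 5.69, 5.64 and 5.41 in shAtad2 against 6.28, 6.48 and 6.39 in shCtrl, a change of -0.80 (shAtad2 minus shCtrl, SE 0.14, 1.74-fold lower, no overlap, limma unadjusted p = 0.000476, adjusted p = 0.310). This size depends on the background treatment, as the change was -0.52 with an offset of 50 and -0.27 without background correction or with the authors' processed values. Over all genes the third arrays of both groups stood apart from the rest (first principal component 26.1 in shAtad2 and 26.8 in shCtrl, against -15.4 to -11.9 on the others). All 10 ES cell markers were above background, among them Pou5f1 and Nanog, with mean levels of 9.99 to 10.4 in shAtad2 and 10.3 to 10.5 in shCtrl, and 8 of the 10 were lower (Dppa5a at -0.28, SE 0.16). Of 18 endoderm markers 9 were measured, with mean levels of 6.93 to 7.39 in shAtad2 and 7.15 to 7.63 in shCtrl, and Gata4, Sox17, Sox7, Foxa2, Afp and Ttr were not among them. Of these 9, 6 were lower and 3 higher, with a median change of -0.019. Their smallest p belonged to Lamb1 (-0.58, SE 0.14). Of 14 fibroblast markers 6 were measured and all 6 were higher (median 0.33, but 0.14 without background correction, 0.15 with the processed values and 0.049 over all 14 without the filter), at 7.78 to 8.06 in shAtad2 and 7.49 to 7.77 in shCtrl, with Mmp2 at 0.49 (SE 0.12), while Col1a1, Col1a2 and Col3a1 were not among those measured. None of these genes passed the threshold by limma, with or without the block, and the part of these markers in the results on ER genes was not tested.

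Promoters of the 10 genes were examined next, because the chaperones are known for a shared control element. The ER stress response element consists of CCAAT, a spacer of 9 bases and CCACG, and it is read by NF-Y together with Atf6. It was searched on both strands in a window of 250 bases before to 50 bases after the RefSeq transcription start (assembly GRCm38.p6). The element was found in 5 of the 10 genes, namely Hspa5, Hsp90b1 (with 2 copies), Calr, Pdia6 and Creld2, against 0.119% of all 32851 windows. The related element II, in which CCACG follows ATTGG after 1 base, was found in Herpud1 and in 0.0365% of windows. With 1 mismatch allowed in CCACG, 7 genes had the first element, as did 0.998% of windows. CCAAT by itself was in 9 of the 10 windows and in 37.4% of all, and CCACG in 9 and in 32.8%. The window of Xbp1 held neither. A match of letters is a description and does not show that a factor binds there.

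The stretches with these elements are shown 5′ to 3′ on the strand of the gene, so that their spacing and orientation can be read. The 2 parts of each element are in capitals, and CGTGG before ATTGG is the element on the opposite strand. The Hspa5 sequence covers the 250 bases before the start (chr2:34771840-34772089, plus strand), and its element lies from -65 to -47. It also holds the core of the UPR element, TGACGTG, from -157 to -151, which was in 2.01% of all windows and in no other of the 10. TGACGT, which that core contains, was in 7.51% of windows and also only in Hspa5 among the 10. The others are shorter, from chr10:86705518-86705671 (Hsp90b1, minus strand), chr8:84847060-84847108 (Calr, minus), chr12:17266476-17266524 (Pdia6, plus), chr15:88819505-88819553 (Creld2, plus) and chr8:94386362-94386402 (Herpud1, plus).
Hspa5: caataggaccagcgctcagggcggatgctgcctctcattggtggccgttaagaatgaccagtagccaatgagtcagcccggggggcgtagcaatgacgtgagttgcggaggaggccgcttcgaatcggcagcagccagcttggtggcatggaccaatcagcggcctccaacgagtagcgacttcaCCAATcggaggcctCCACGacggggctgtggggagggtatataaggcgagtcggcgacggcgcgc
Hsp90b1: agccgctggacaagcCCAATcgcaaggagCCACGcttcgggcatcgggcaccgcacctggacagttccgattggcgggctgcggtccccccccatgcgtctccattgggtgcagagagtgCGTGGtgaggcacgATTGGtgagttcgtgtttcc
Calr: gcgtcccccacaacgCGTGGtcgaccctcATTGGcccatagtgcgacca
Pdia6: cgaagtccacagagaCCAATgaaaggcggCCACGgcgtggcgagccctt
Creld2: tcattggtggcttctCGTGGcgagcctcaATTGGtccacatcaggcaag
Herpud1: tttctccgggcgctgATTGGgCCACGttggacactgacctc

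**Figure D1:**
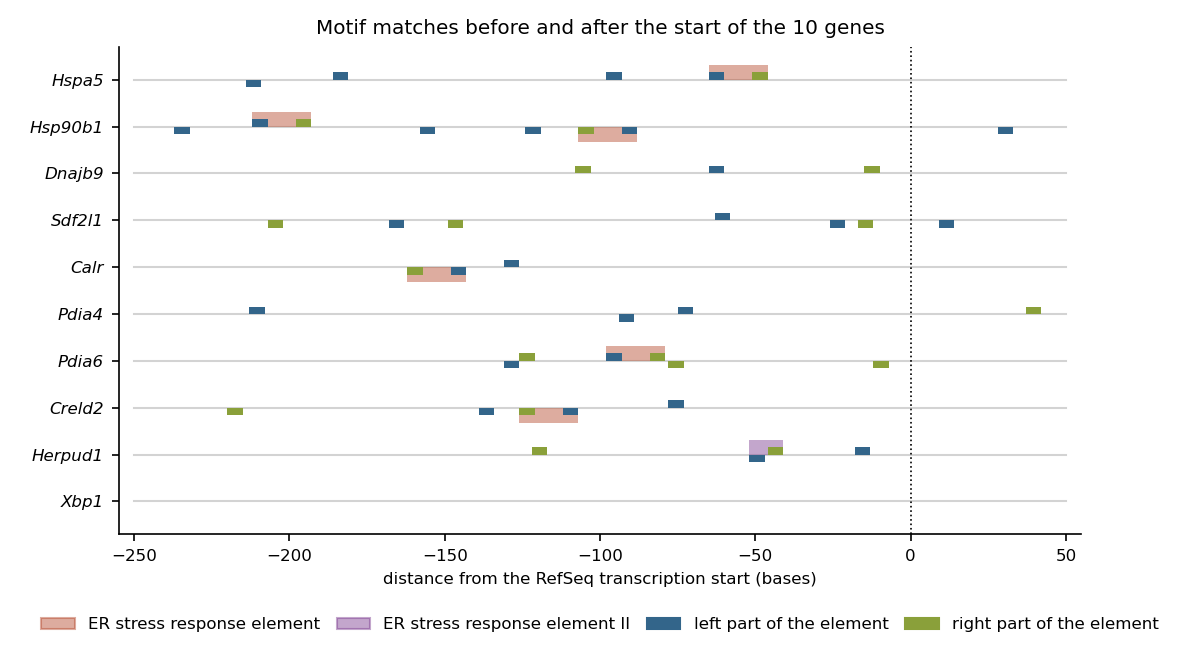
Motif matches in the promoter windows of the 10 genes, by distance from the RefSeq start in bases, with matches on the strand of the gene above each line and on the other strand below it, CCAAT in blue (left part) and CCACG in green (right part). The full element is marked in 5 genes and element II in Herpud1, while the line of Xbp1 is empty.

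On the arrays, no change among the 10 ER genes passed the test. The changes (shAtad2 minus shCtrl, normalized log2 intensity) ran from -0.38 to 0.18, with a median of -0.04 against -0.0012 over all genes. Of the 10 genes, 6 had a lower mean in shAtad2, while 50.3% of all genes did. By limma, 0 of the 10 passed the threshold of 0.05 on the adjusted p, and 0 of 10072 genes did (0% called, 798 with an unadjusted p under 0.05). With the replicate number as a block 0 of the 10 passed as well, against 0.0993% of all genes. At an unadjusted p under 0.05, 1 of the 10, Hspa5, was lower and 0 were higher, where 3.80% of all genes were lower and 4.12% higher (with the block again Hspa5 alone, against 6.90% and 6.54%). The arrays of the groups did not overlap in 1 of the 10, Hspa5, which was below, against 6.59% of all genes below and 6.94% above. It follows that Hspa5 was lower in all 3 pairs of arrays with the same number, which is no further observation. It was the only one of the 10, and 0 were higher in all 3, against 17.4% and 17.2% of all genes.

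**Figure D2:**
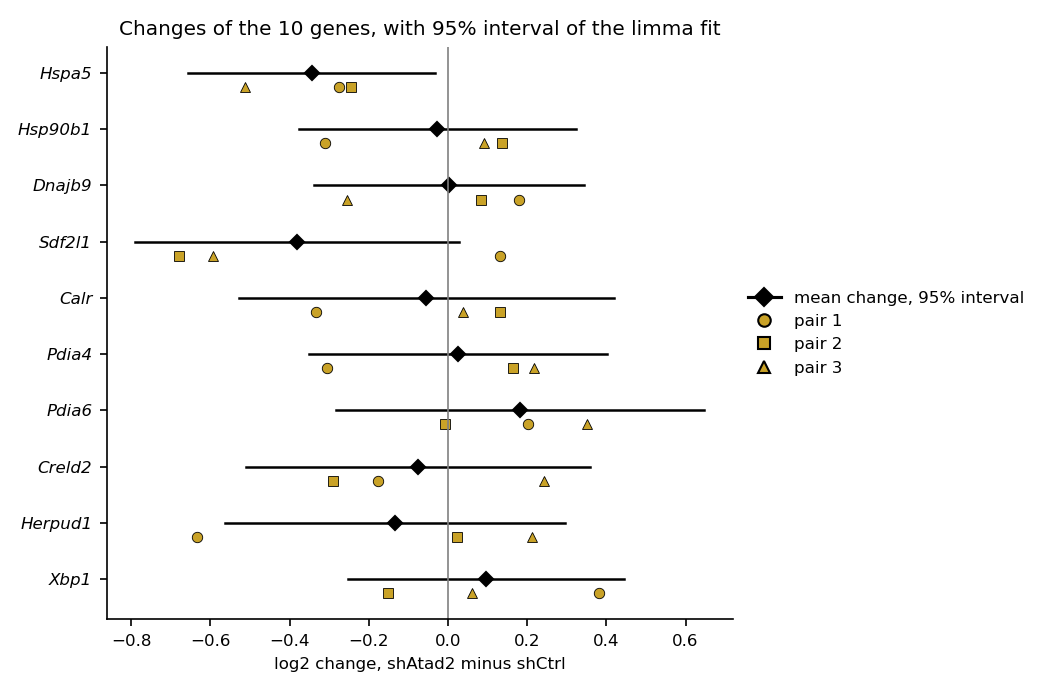
Change of each gene in log2 units, shAtad2 minus shCtrl (diamonds, with the 95% interval of the limma fit before adjustment), and the difference within each pair of arrays of the same replicate number (small symbols). The interval of Hspa5 runs from -0.66 to -0.03, and those of the other 9 genes include 0.

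The main folding chaperones of the lumen are Hspa5 (BiP), the Hsp70 of the ER and the protein whose release wakes the UPR sensors, and Hsp90b1 (Grp94), its Hsp90. Hspa5 read 5.58, 5.76 and 5.55 on the shAtad2 arrays, against 5.85, 6.001 and 6.06 on the shCtrl arrays. All shAtad2 arrays lay below all shCtrl arrays. The means were 5.63 ± 0.11 in shAtad2 and 5.97 ± 0.11 in shCtrl (SD, n = 3 each). The log2 change was -0.34 (SE 0.14), that is 1.27-fold lower, and limma did not call it (unadjusted p = 0.0347, adjusted p = 0.578, and 0.323 with the block). This is a dim probe, the only one for Hspa5, with an unnormalized intensity of 158.2, 159.7 and 158.0 in shAtad2 and 173.6, 173.5 and 170.6 in shCtrl, where the median probe of an array read 130.0 to 138.9. Without background correction the change was -0.11.

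Hsp90b1 read 12.32, 12.51 and 12.67 in shAtad2, against 12.63, 12.37 and 12.58 in shCtrl. The groups covered the same range, with means of 12.50 ± 0.18 in shAtad2 and 12.53 ± 0.14 in shCtrl. The change was -0.03, with an interval of -0.38 to 0.32 (limma, 95%, adjusted p = 0.988).

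Dnajb9 (ERdj4) and Sdf2l1 work with Hspa5, Dnajb9 as a J-domain cochaperone and Sdf2l1 in a complex with another J-domain protein of the lumen. Sdf2l1 had the largest difference of the 10, with 7.56, 7.12 and 7.16 in shAtad2 against 7.42, 7.80 and 7.75 in shCtrl. Replicate 1 went the other way, being 0.13 higher in shAtad2, while replicates 2 and 3 were -0.68 and -0.59 apart. The means were 7.28 ± 0.24 in shAtad2 and 7.66 ± 0.20 in shCtrl. Sdf2l1 thus differed by -0.38 (SE 0.18, 95% interval -0.79 to 0.03, limma unadjusted p = 0.0640, adjusted p = 0.674). Dnajb9 lay level, at 8.23, 8.04 and 8.04 in shAtad2 and 8.05, 7.95 and 8.30 in shCtrl, and its change was 0.0022 (95% interval -0.34 to 0.34).

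Calr (calreticulin) holds newly made glycoproteins through their sugars and binds calcium in the lumen. It read 9.25, 9.65 and 9.10 in shAtad2, against 9.59, 9.52 and 9.07 in shCtrl. The third array was the lowest of its group in both. The change of -0.05 (SE 0.20, 95% interval -0.53 to 0.42) was smaller than the SD within either group, 0.28 in both.

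Pdia4 (ERp72) and Pdia6 (P5) are disulfide isomerases, and Pdia6 is also known to switch off active UPR sensors. Pdia4 read 9.64, 9.95 and 9.74 in shAtad2 and 9.94, 9.79 and 9.52 in shCtrl, with a change of 0.03 (95% interval -0.35 to 0.40). Pdia6 read 7.83, 7.21 and 7.68 in shAtad2 and 7.63, 7.21 and 7.33 in shCtrl. Its change of 0.18 (SE 0.20, adjusted p = 0.912 by limma) was the highest of the 10, and it ran from 0.053 without shAtad2 1 to 0.37 without shAtad2 2. The dimmer Pdia6 probe, annotated to another transcript record, went the opposite way, at -0.18 (SE 0.20). Its array-by-array levels ran against those of the brighter one (Pearson r = -0.78 over 6 arrays), so no direction can be given for Pdia6.

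Creld2 is a secreted and ER-resident protein that is induced by ER stress. It read 10.19, 10.18 and 10.07 in shAtad2, against 10.36, 10.47 and 9.83 in shCtrl. The shAtad2 arrays lay close together (10.14 ± 0.07), and the shCtrl arrays spread around them (10.22 ± 0.34). The change was -0.07 by the brighter probe (95% interval -0.51 to 0.36) and 0.01 by the other.

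Herpud1 is a membrane protein that organizes the Hrd1 complex for ER-associated degradation. It read 9.51, 9.91 and 9.81 in shAtad2, against 10.14, 9.89 and 9.59 in shCtrl. The difference was -0.64 for replicate 1, 0.02 for replicate 2 and 0.21 for replicate 3, and the mean change was -0.13 (SE 0.19, 95% interval -0.56 to 0.30). Its other probe differed by 0.05 (SE 0.15).

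Xbp1 is the transcription factor whose mRNA Ire1 splices. Its single probe read 10.28, 9.97 and 9.96 in shAtad2, against 9.89, 10.12 and 9.90 in shCtrl. The groups overlapped, and the change was 0.10 (SE 0.15, 95% interval -0.25 to 0.45, adjusted p = 0.952 by limma). The value is a level of Xbp1 RNA, and its splicing was not analysed here.

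**Figure D3:**
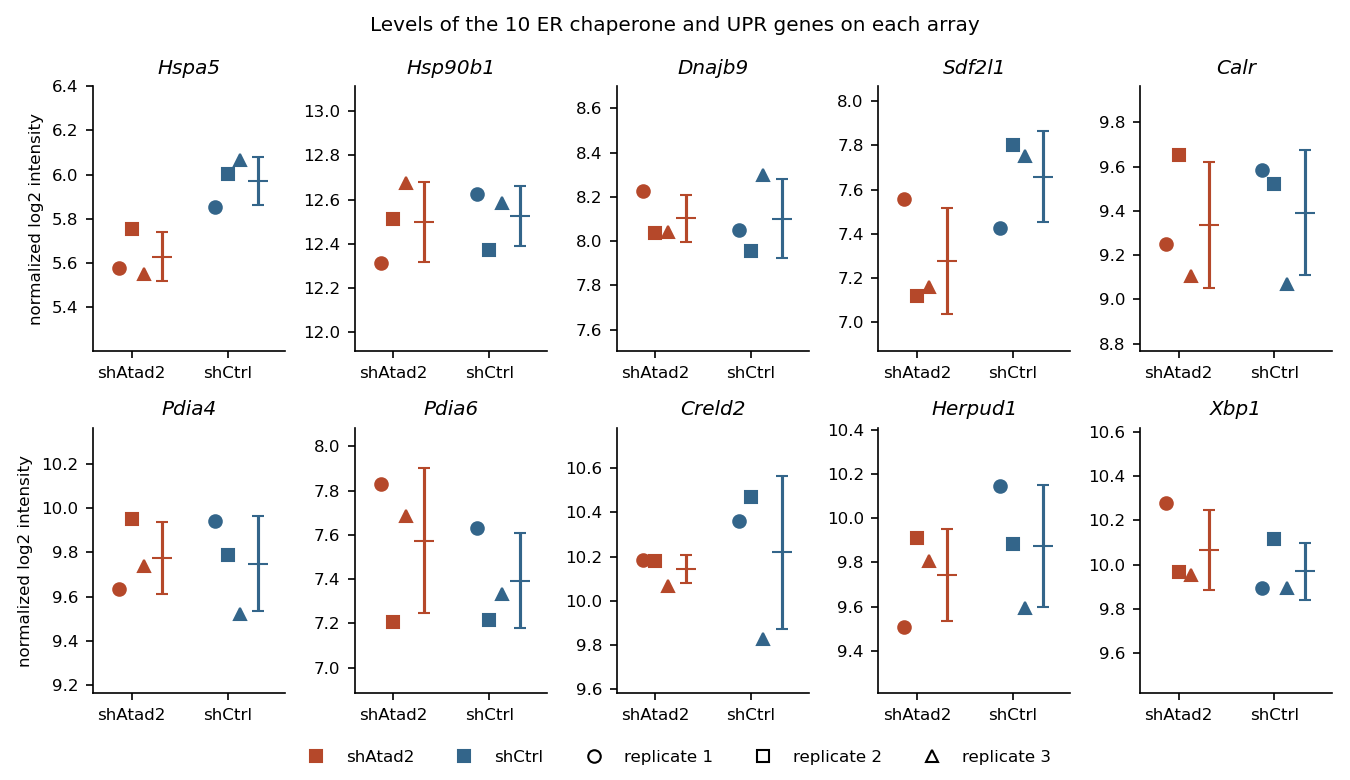
Normalized log2 intensity of each gene on every array, shAtad2 in red and shCtrl in blue, with the mean and SD of the 3 arrays of a group beside them. Each panel spans the same number of log2 units, so that spreads can be compared, and only the Hspa5 panel shows groups that do not overlap.

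Where a gene had a pair of usable probes, they gave a measure of how far a single probe can be trusted. Over the 6 arrays the probes correlated at 0.81 for Creld2, 0.70 for Herpud1 and 0.67 for Dnajb9, besides the -0.78 for Pdia6. These are descriptions over arrays that share groups and replicates. The other Dnajb9 probe differed by -0.09 between groups. In none of these 4 genes did the probes give changes of the same sign, and limma called none of them (smallest adjusted p = 0.923 across all 18085 kept probes).

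**Figure D4:**
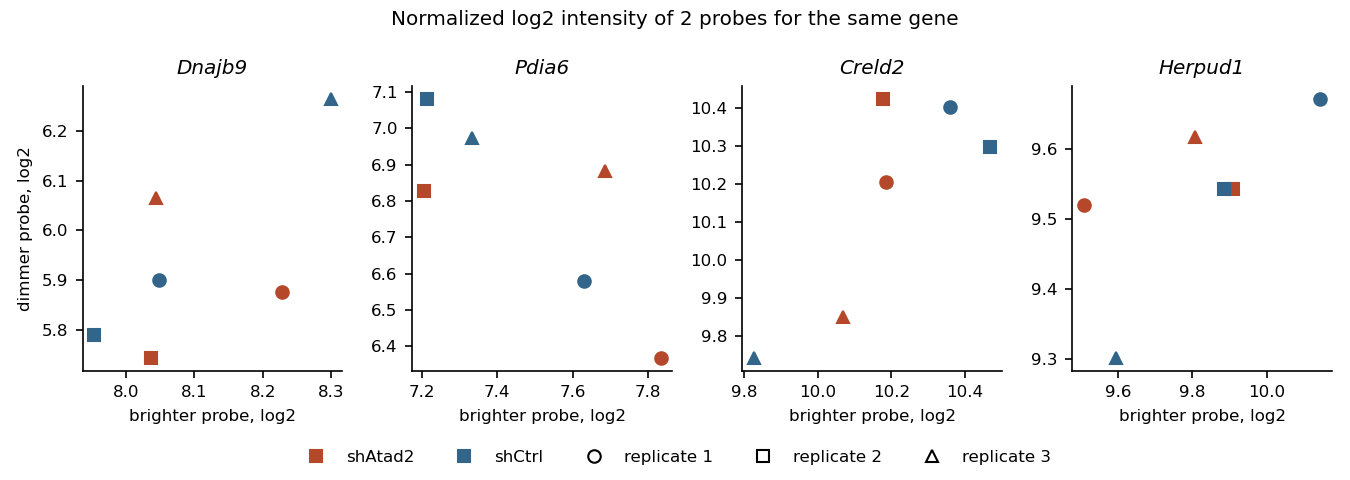
Log2 intensity of the brighter (x axis) and the dimmer probe (y axis) of the 4 genes with 2 probes above background, 1 symbol per array. Points run upwards for Creld2, Herpud1 and Dnajb9 and downwards for Pdia6.

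As read by 1 probe per gene, the 10 genes did not move as a unit. Of their 45 pairs, 7 correlated above 0.5 over the 6 arrays and 23 below 0, with a median of -0.01. The same shares over other gene pairs were not computed, and the part of probe noise was not tested. Pdia4, Calr, Herpud1 and Creld2, picked after their values were seen, were the most alike, with correlations from 0.61 (Herpud1 with Creld2) to 0.88 (Pdia4 with Calr). Hsp90b1 and Xbp1 ran opposite, at -0.91, and so did Dnajb9 and Pdia4, at -0.78. The third arrays, which stood apart over all genes, were read for these 4. On shAtad2 3 they differed from the mean of the other shAtad2 arrays by -0.11 (Creld2), -0.35 (Calr), 0.10 (Herpud1) and -0.06 (Pdia4). On shCtrl 3 they lay lower than on the other shCtrl arrays, at -0.59, -0.49, -0.42 and -0.34 in the same order. The part of the third arrays in the correlations was not tested. The median difference of the 10 genes was -0.23, 0.01 and 0.08 in pairs 1, 2 and 3.

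The genes whose profile was most like the mean of the 10 were sought over the 6 arrays among 5981 genes with enough spread. They were Snai1, a repressor of the epithelial state (r = 0.989), Mrps18c of the mitochondrial ribosome (0.989), Ebp of cholesterol synthesis (0.987), the protease gene Senp8 (0.985) and Gtpbp10 (0.983). These are the highest of 5981 correlations over only 6 arrays, so high values come in part from the choice and were not tested. The 10 genes correlated with the mean of the other members at -0.62 (Dnajb9) to 0.68 (Creld2), so their mean does not describe each gene. The mean of the 10 moved little, at 9.04, 9.03 and 8.98 in shAtad2 and 9.15, 9.11 and 8.99 in shCtrl. Snai1 covered a much wider range, from 5.52 on shAtad2 3 to 7.77 on shCtrl 1, and was not called (limma, change -0.88, SE 0.45, adjusted p = 0.713).

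The rest of the ER was then read, to see whether genes with neighbouring roles behaved otherwise. In 10 lists were 132 further genes of the ER and of the UPR, those of NF-Y among them. Of these, 104 were measured, 45 of them higher and 59 lower in shAtad2, with a median of -0.04. By limma 0 passed, with or without the block, and at an unadjusted p under 0.05 there were 4 higher and 7 lower of the 104, where 4.12% of all genes were higher and 3.80% lower. Among 7 measured genes of the UPR sensors, the enzymes they use and NF-Y, 4 were higher, and Mbtps1, the protease that cuts Atf6, differed by 0.23 (SE 0.13). Not among them were Atf6, Mbtps2 and Eif2ak3, the gene of Perk, which had no probe past the filter. Of 7 cochaperones of Hspa5, 5 were lower with a median of -0.18. Hyou1, a nucleotide exchange factor of Hspa5, read 6.49, 6.46 and 6.28 in shAtad2 against 6.90, 6.75 and 6.99 in shCtrl. These groups did not overlap, and the change of -0.47 (SE 0.14) was not called (limma adjusted p = 0.448).

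Enzymes and carriers of the ER went in both directions. Of 13 disulfide isomerases and oxidases 8 were higher, with the thioredoxin-like Tmx4 at 0.44 (SE 0.18), and of 5 lectin chaperones and glycan enzymes 3 were lower, with the lectin Clgn at -0.35 (SE 0.16). Genes of ER-associated degradation were split, 10 higher and 10 lower of 20. Sel1l, the partner of the Hrd1 ligase that Herpud1 joins, read 8.66, 8.56 and 8.59 in shAtad2 against 8.16, 8.19 and 8.30 in shCtrl, a change of 0.38 (SE 0.12, limma adjusted p = 0.501) with no overlap. Of 17 translocon and signal peptidase genes 10 were lower (Ssr4, a subunit of the translocon-associated complex, at -0.27), as were 4 of 8 oligosaccharyltransferase genes (Dad1 at -0.29) and 5 of 6 prolyl isomerases (Fkbp11 at -0.36). Of 13 genes of ER export and retrieval 10 were lower, and the COPII coat subunit Sec13 read 12.89, 12.93 and 12.86 in shAtad2 against 13.40, 13.31 and 13.30 in shCtrl. The groups did not overlap, yet its change of -0.45 (SE 0.12) did not pass (limma adjusted p = 0.436). Of 8 calcium genes 4 were lower, with the pump gene Atp2a3 at 0.45 (SE 0.15).

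The Perk and Atf4 branch of the response stood beside the chaperones for comparison. The gene of Perk itself, Eif2ak3, was not measured, and whether Perk acts on the genes of this list here was not tested. Of 12 measured genes 10 were lower in shAtad2, with a median of -0.21 and medians of -0.28, -0.31 and -0.28 in pairs 1, 2 and 3. With the block, which called 0.0993% of all genes, 1 of the 12 fell, Ddit3, the stress transcription factor CHOP, at 7.56, 7.29 and 8.11 in shAtad2 against 8.54, 8.42 and 9.34 in shCtrl (change -1.11, block SE 0.13, adjusted p = 0.0479 by limma, close to the threshold, and 0.436 without the block). This call rests on pairing the arrays by number, and replicates 1 and 2 were not told apart. The departure of shAtad2 2 from its group mean correlated with that of shCtrl 1 at 0.34 and of shCtrl 2 at 0.29. The call of Ddit3 was not followed through the other alternatives. Nupr1, a stress-induced chromatin protein, had the smallest p of the list in the fit without the block (-0.97, SE 0.16, limma adjusted p = 0.310). Of 19 cytosolic chaperones 10 were lower, with a median change of -0.02 against -0.0012 over all genes. The chaperonin subunit Cct5 was at -0.39 (SE 0.15). The branches share the same 6 arrays, and a difference between lists was not tested.

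**Figure D5:**
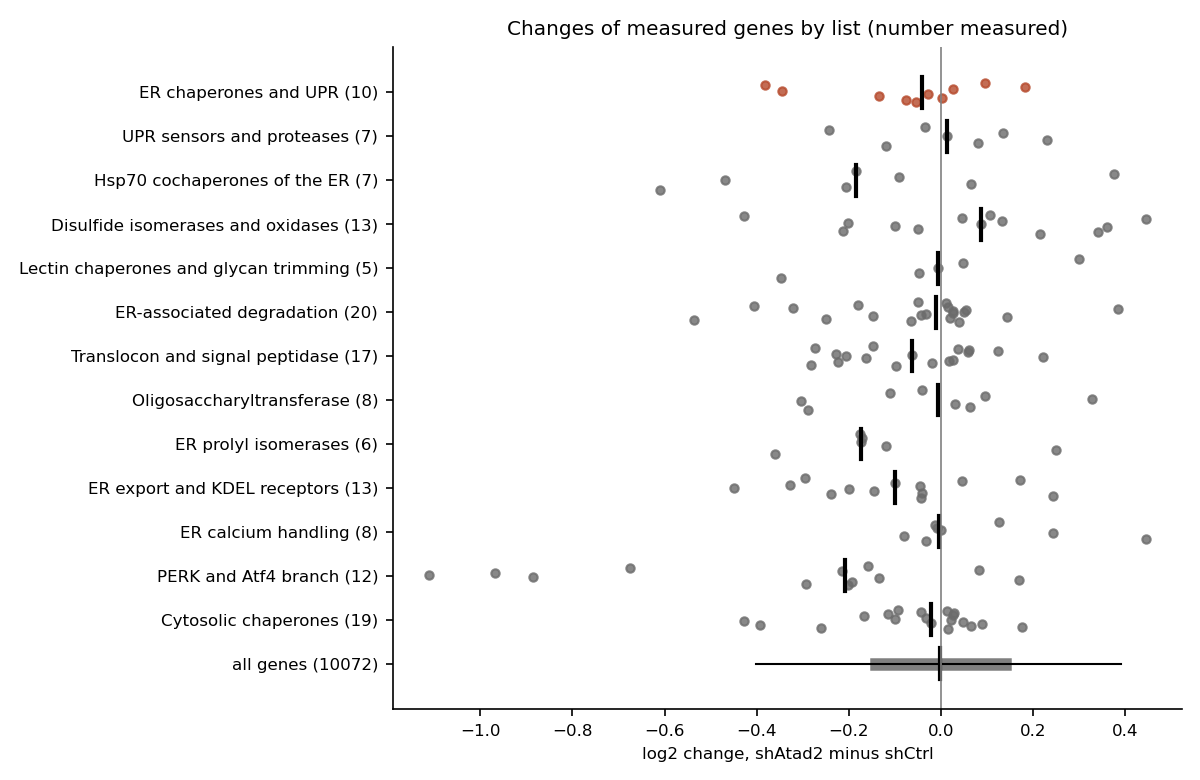
Log2 change of each measured gene by list, shAtad2 minus shCtrl, with the median as a black bar and, for all genes, the 25th to 75th percentile as a thick and the 5th to 95th as a thin line. The chaperone list has its median at -0.04 and the Perk and Atf4 list at -0.21, with 4 genes of the Perk and Atf4 list, Ddit3 among them, below -0.6.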

How the data were processed

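Total RNA of 6 samples was read on bead arrays. The authors deposited unnormalized probe intensity, a detection p-value for each probe and array, and a table of processed intensity on a linear scale whose 6 columns share a single distribution. For the scanner readout and the normalization of the second table, the method is not given in the sources used here.

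Unnormalized intensity of 45281 probes was corrected by normexp on the detection p-values with 16 added as offset, then quantile-normalized and log2-transformed (neqc of limma 3.58.1, R 4.3.3). Probes above background (detection p under 0.05) on at least 3 of 6 arrays were kept, 18085 in all, and the brightest kept probe stood for its gene, giving 10072 genes. Symbols came from the platform annotation of the array and were updated through Entrez identifiers for 34807 of 34885 probes with a single symbol. The groups were compared with limma (lmFit and eBayes, two-sided) without a block, and p-values were adjusted over all genes by Benjamini-Hochberg, with a threshold of 0.05. The fits were tested on simulated data.

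To see whether replicate numbers pair the arrays, each array's departure from its group mean was correlated with that of its namesake in the other group. The values were 0.30, 0.29 and 0.58, each over the 0.1 set for pairs, so a fit blocked on the replicate was also made. Replicates 1 and 2 are not told apart by this check, as shAtad2 2 correlated with shCtrl 1 at 0.34. The correlation of shAtad2 1 with shCtrl 2 was 0.30, so the check does not show that these replicates pair. The number of arrays limits the precision, and the offset shrinks the changes of dim probes. Promoter windows were taken from RefSeq (GRCm38.p6), and the 10 genes all matched.

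The 10 genes and the other lists were chosen from general knowledge with earlier results of these data known. Named genes were the 10 genes, Atad2, the gene with the smallest p-value in each other list, and the 5 genes whose profile was closest to the mean of the 10 (among genes with an SD of at least 0.2). Others were named after their values were seen. Alternatives covered background, offset, normalization, filter, probe, variance model, block and arrays left out.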

Additional observations from a re-analysis of the deposited data

How the results depend on the processing

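None of the 10 genes passed the threshold in any of the 18 alternatives, and Hspa5 and Sdf2l1 were lower in all 18, from -0.41 to -0.11 and from -0.52 to -0.22. All settings reuse the same arrays, so the shared sign is no added support. By limma the unadjusted p was under 0.05 in 7 of the 18 for Hspa5 (largest 0.198) and in 2 for Sdf2l1 (largest 0.235). Over all genes, where the fit without a block called 0, 1 passed without background correction, with an offset of 50, with the authors' processed values and with a trended robust variance, 2 without the third replicates, 10 with the replicate block and 13 with the block but without the third replicates, a setting added after seeing the data. The replicate block changed the call of no ER gene or marker named here except Ddit3. The count at an unadjusted p under 0.05 was 798 of 10072 genes, and 1283 of 19057 without a filter, 1354 of 10072 with the block, 1810 of 10210 without the third replicates and 1729 of 10210 with the block besides. With single arrays left out it ran from 509 to 1149, and the median of the 10 genes ran from -0.15 (without shCtrl 3) to 0.038 (without shAtad2 3). The sign of small changes depended on the probe, with -0.090 for Dnajb9 and 0.013 for Creld2 by the most variable probe, and -0.044 for Dnajb9 and -0.00093 for Pdia6 by the mean of probes. Pdia4 was at -0.070 without the third replicates, with or without the block. With single arrays or the third replicates left out, changes ran from -0.12 to 0.063 for Hsp90b1, -0.070 to 0.13 for Dnajb9, -0.0087 to 0.17 for Xbp1, 0.053 to 0.37 for Pdia6, -0.090 to 0.12 for Pdia4, -0.22 to 0.062 for Calr, -0.27 to 0.17 for Creld2 and -0.31 to 0.00028 for Herpud1. The median of the Hspa5 cochaperones, -0.18, was -0.088 without background correction, -0.090 with the processed values and -0.28 without the third replicates. The cause was not tested. A signal near background limits Hspa5.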

Other observations

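Some further genes of the ER and UPR lists had groups that did not overlap, and they were picked after their values were seen. Of the 104 measured, 12 lay below and 5 above shCtrl on all arrays, where 6.59% of all genes lay below and 6.94% above. Below were Dnajc1, a J-domain protein of the ER membrane (-0.61, SE 0.20, above background on 2 of the 3 shAtad2 arrays), the COPII coat gene Sec23a (-0.33), the COPII GTPase gene Sar1b (-0.20) and the signal peptidase genes Sec11c (-0.28) and Spcs1 (-0.21). Above were Sec63, the J-domain partner of Hspa5 at the translocon (0.38), and Rpn1 of the oligosaccharyltransferase (0.33, above background on 1 of the 3 shCtrl arrays). None passed the threshold by limma, with or without the block.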
